A study of Mus musculus with 24 samples.

Results

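The stress keratins of the skin were followed by their mRNA levels in embryos with and without desmoglein 1 (Dsg1). They were chosen by name, as the keratins whose genes are known to be induced by wounding and stress: Krt6a and Krt6b, which encode type II keratins, and Krt16 and Krt17, which encode their type I partners. These are 4 of the 54087 gene symbols in the count table and 4 of its 55 keratin genes. All 4 members passed the filter on low counts, which kept 17094 genes and 45 keratins. Krt16 rose 11.4-fold in KO over WT skin and was the only member that passed the test over all genes. Krt6a (8.74-fold) and Krt6b (6.56-fold) were also higher in KO on average, but varied widely from column to column and did not pass. Krt17, which was already abundant, differed little between genotypes.

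Keratins are the intermediate filament proteins of epithelia, and each filament pairs a type I with a type II chain. Resting interfollicular epidermis uses Krt5 with Krt14 in its basal layer and Krt1 with Krt10 above it. KRT6 and KRT16 are kept low there and are switched on in suprabasal keratinocytes after injury and in hyperproliferative skin disease. KRT17 is a regular keratin of the hair follicle and other appendages, so that its mRNA is present in unwounded embryonic skin.

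Skin was taken at embryonic day 18.5 (E18.5) from the back of mouse embryos labelled WT, HET and KO, which carried both, a single or no intact copies of the tandem Dsg1 genes. Dsg1 is a cadherin of the desmosomes that hold keratinocytes together. The deletion was made with CRISPR/Cas9 in C57BL/6J zygotes, descends from a single founder that was backcrossed, and is constitutive, so that all cell types of the KO embryos carried it. KO animals die soon after birth with peeling skin. There were 24 libraries, 8 per genotype, with 8976020 to 20964721 counts. Library titles carry a number and come in 2 formats, called series 1 (9 libraries) and series 2 (15 libraries), and libraries with the same number and genotype were summed, which gave 15 columns, 5 per genotype. Levels are CPM, counts scaled to a common library size after TMM adjustment. What a title number stands for was not given, so p-values measure the spread between columns, whatever its source.

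The summed Dsg1 genes stood at 806 ± 112 CPM in WT, 422 ± 51.5 in HET and 0.548 ± 0.343 in KO (SD, n = 5 each), in the order of the labels. Sex-linked genes set the 2 libraries of title number 35 (WT replicate 2) apart: the series 1 library held 325 CPM of Y-linked genes and 0.264 of Xist, and the series 2 library held 0.154 and 564. The labelled tissue was present in every column, with 7 skin epidermis markers summing to 58619 CPM or more. Dermal fibroblast markers (5 genes) summed to 14620 to 36465 CPM and skeletal muscle markers (5 genes) to 7309 to 16987 CPM over all columns, so these were samples of whole skin, in which fewer cells of a type and less RNA per cell cannot be told apart.

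The members come as close copies, which bears on how short reads can be assigned. Krt6b and Krt6a lie side by side on chromosome 15, and Krt16 and Krt17 on chromosome 11. The coding sequences of Krt6a and Krt6b were identical at 1625 of 1662 aligned positions (97.8%), with a longest identical run of 280 bases. Those of Krt16 and Krt17 were identical at 80.5% of aligned positions, and Krt16 was closer to its other neighbour Krt14, at 86.7%. Shown here are the 60-base coding windows in which the members of each pair differ most, 5′ to 3′ on the coding strand, with the bases that differ from the partner in capitals.
Krt6a: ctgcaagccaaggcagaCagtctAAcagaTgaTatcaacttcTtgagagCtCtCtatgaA
Krt6b: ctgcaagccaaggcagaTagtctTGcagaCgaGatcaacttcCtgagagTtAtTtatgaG
Krt16: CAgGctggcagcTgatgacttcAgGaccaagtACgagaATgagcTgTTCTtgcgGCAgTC
Krt17: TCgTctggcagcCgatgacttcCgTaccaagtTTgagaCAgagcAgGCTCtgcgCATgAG
The Krt6a and Krt6b windows hold 10 differences and the Krt16 and Krt17 windows hold 20. On GRCm38, with GENCODE vM21 as the source of sequence and annotation, the Krt6a window is chr15:101692484-101692543 and the Krt6b window chr15:101678303-101678362, both in coding exon 4 and on the minus strand. The Krt16 window runs over exons 2 and 3 within chr11:100247689-100247886 and the Krt17 window over exons 2 and 3 within chr11:100259300-100259724, also on the minus strand.

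The read length of these libraries was not given for certain, and windows of 50 bases were taken as a measure of shared sequence. Of all such windows of the Krt6a transcript, 62.0% occurred in another annotated gene, and 43.6% of all windows occurred in Krt6b. For Krt6b the share was 50.1%, with 44.5% found in Krt6a, and for Krt16 it was 37.6%, with 25.2% found in the annotated gene Gm11597 and 12.4% in Krt14. Only 3.99% of Krt17 windows recurred elsewhere. Krt5, at 2977 CPM in WT, shared 6.73% of the Krt6a windows and 2.24% of the Krt6b windows. How reads with several matches were counted was not given, so the split of counts between Krt6a and Krt6b and their low levels are uncertain. The level of Krt17 is the least affected of the 4 by this measure.

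Per length, the members differed widely in WT skin. Krt17 stood at 477 ± 65.8 CPM per kb of transcript, Krt16 at 15.9 ± 5.20, Krt6b at 1.94 ± 1.01 and Krt6a at 0.663 ± 0.239 (SD, n = 5), and no column of a member overlapped with a column of the next in this order. In HET skin the means were 473 ± 106 for Krt17, 22.8 ± 18.4 for Krt16, 4.78 ± 8.31 for Krt6b and 0.555 ± 0.427 for Krt6a on the same scale. In KO skin Krt17 at 443 ± 34.1 CPM per kb and Krt16 at 182 ± 106 remained the upper pair, and Krt6b at 12.8 ± 10.9 and Krt6a at 5.86 ± 9.85 overlapped. The order of the means was the same in the 3 genotypes, but the columns of neighbouring members overlapped in HET for Krt16 and Krt6b and for Krt6b and Krt6a.

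**Figure D1:**
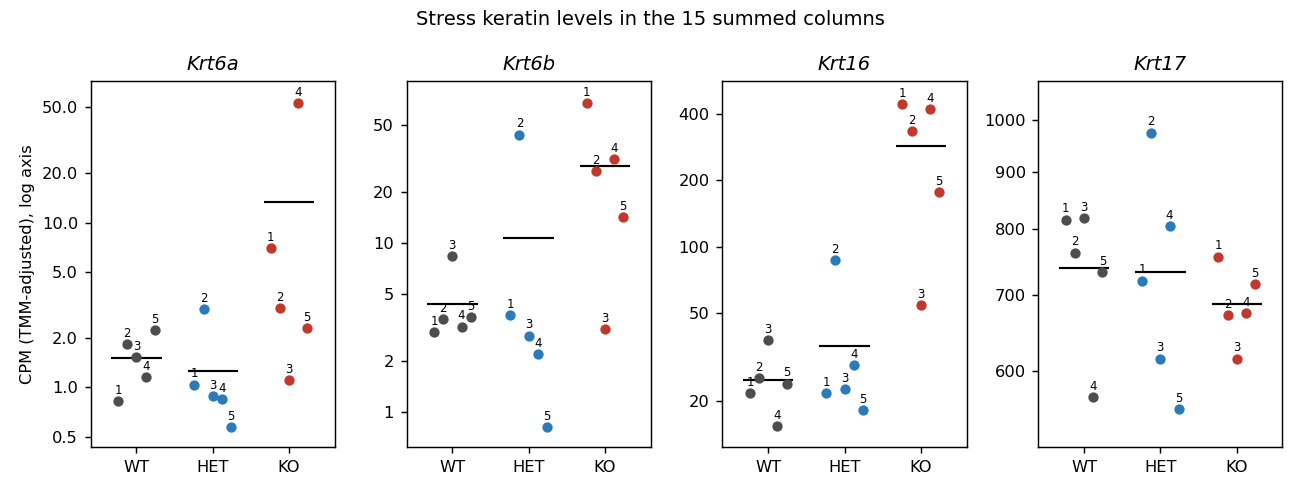
Level of each stress keratin in CPM (log axis, a separate range in each panel) in the 5 WT, 5 HET and 5 KO columns, with replicate numbers beside the points and the group mean as a horizontal line. Krt16 has all 5 KO columns above all 5 WT columns, KO replicate 4 stands apart for Krt6a at 53.3 CPM, HET replicate 2 stands apart for Krt6b at 43.9 CPM, and the Krt17 groups overlap.

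KO was compared with WT to ask which stress keratins respond in skin that lacks Dsg1. A gene was called when edgeR's quasi-likelihood test gave a Benjamini-Hochberg adjusted p, over all 17094 genes, of at most 0.1 and its log2 fold change was at least 1 in size, the thresholds of the study. Of the members, 1 of 4 was called higher in KO and 0 of 4 lower, where 0.135% of all tested genes were called higher and 0.187% lower. Every KO column lay above every WT column for 1 of 4 members, and for 1.61% of all tested genes. The median log2 fold change of the 4 members was 2.92 (range -0.11 to 3.52), beside -0.009 for all genes tested.

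Krt16, the inducible type I keratin, was that gene. Its WT columns held 21.8, 25.5, 37.7, 15.4 and 24 CPM (replicates 1 to 5). The KO columns held 440, 334, 54.5, 420 and 176 CPM. The lowest KO column, replicate 3, was thus 1.45 times the highest WT column, and the 4 other KO columns stood well above it. The log2 fold change was 3.52 (SE 0.60, adjusted p = 0.0333 by edgeR's quasi-likelihood test), and the two-sided exact permutation test on log2(CPM + 1) gave p = 0.00794, the smallest that 5 against 5 columns allow. This was 1 of 8 such permutation tests on members in KO vs WT and HET vs WT. More were run in KO vs HET and on ratios of members. The size of the change held when any column was left out (log2 fold change 3.30 to 3.78), while the call did not, since the adjusted p was 0.105 without WT replicate 1 and 0.121 without WT replicate 2, the number with unlike libraries. With these libraries kept as 2 columns, the adjusted p was 0.00978. The cause of the lost calls was not tested.

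Krt17, the other type I member, gave no such difference. It was counted at 816, 763, 818, 569 and 733 CPM in WT. In KO it was counted at 757, 672, 615, 675 and 716 CPM. The KO values lay inside the WT range in every column, and WT replicate 4 was lower than all of them. The log2 fold change was -0.11 (SE 0.14), and its 95% interval (1.96 SE to each side) ran from -0.38 to 0.16, so that a change of 1 on the log2 scale lay outside it. The adjusted p was 0.683 by edgeR's quasi-likelihood test, and the exact permutation p was 0.397. Leaving out columns moved the log2 fold change between -0.19 and -0.06.

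The 2 neighbouring type I genes therefore changed unequally. The log2 ratio of Krt16 to Krt17, on CPM + 1, was -4.88 ± 0.30 in WT and -1.59 ± 1.18 in KO (SD, n = 5), a difference of 3.29 with an exact permutation p of 0.00794. Per kb, Krt16 made up 2.58% to 4.37% of the summed pair in WT columns and 8.07% to 38.1% in KO columns. KO replicate 3 gave the lowest KO share, and the ranges did not overlap. Krt17 kept its proportion to Krt14, the basal type I keratin on the other side of Krt16, with a log2 ratio of -1.69 ± 0.09 in WT and -1.72 ± 0.12 in KO.

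Krt6b, a type II partner of Krt16, was counted at 2.96, 3.54, 8.35, 3.20 and 3.63 CPM in WT. The KO columns held 67.6, 26.7, 3.11, 31.4 and 14.3 CPM. KO replicates 1, 2, 4 and 5 exceeded every WT column, and KO replicate 3 lay among the lower WT columns. The log2 fold change was 2.71 (SE 1.03), which did not pass over all genes (adjusted p = 0.188, edgeR quasi-likelihood test), with an interval of 0.70 to 4.73. The exact permutation p of this single gene was 0.0397. DESeq2 called it (adjusted p = 0.0650), and leaving out columns gave log2 fold changes of 2.11 to 3.10.

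Krt6a, the other type II member, was the least abundant. The WT columns held 0.825, 1.83, 1.52, 1.16 and 2.22 CPM, which rest on 17 to 63 counts each. The KO columns held 7.03, 3.02, 1.11, 53.3 and 2.29 CPM. KO replicate 4, with 1037 counts, carried 79.9% of the summed KO level, 3 other KO columns were also above every WT column, though replicate 5 only just, and KO replicate 3 was not. The log2 fold change was 3.13 (SE 0.96, adjusted p = 0.131 by edgeR's quasi-likelihood test) with an exact permutation p of 0.0794. It was 1.17 (adjusted p = 0.324) without KO replicate 4, and the mean of the other 4 KO columns was 3.36 ± 2.57 CPM (SD, n = 4) against 1.51 ± 0.545 in WT. The gene was called by DESeq2 (adjusted p = 0.0189), and by edgeR without KO replicate 3 (adjusted p = 0.0808), without KO replicate 5 (0.0672) or with the libraries of number 35 as 2 columns (0.0760).

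The column that set the Krt6a mean also stood apart in some keratins of simple and periderm-type epithelia. In KO replicate 4, Krt8 was at 106 CPM and its type I partner Krt18 at 93.5, while the other KO columns reached at most 4.38 and 1.95. Krt19 was at 120 CPM there and at most 2.34 in the other KO columns, Krt7 was at 95.1 and at most 8.09, and the mucosal keratin Krt13 was at 25.6 and at most 2.85. These 5, picked out after their values were seen, were highest in KO replicate 4 of the 8 genes on the list of simple, periderm and mucosal keratins, which summed to 574 CPM in that column, 67.2 to 246 in the other KO columns and 191 to 317 in WT. Krt4, Krt23 and Krt76, the rest of the list, were not raised in KO replicate 4. They were at 1.44, 132 and 0.0514 CPM there, with WT ranges of 1.38 to 3.98, 171 to 286 and 0.146 to 0.782. No gene of the list was at 0 in every column of a genotype. In KO vs WT, 0 of 8 were called, with a median log2 fold change of 1.63. This column comes from a single library, and the part of cells with the 5 raised keratins in its Krt6a level was not tested. Krt16 in KO remained called without it, at a log2 fold change of 3.34 (adjusted p = 0.0864).

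**Figure D2:**
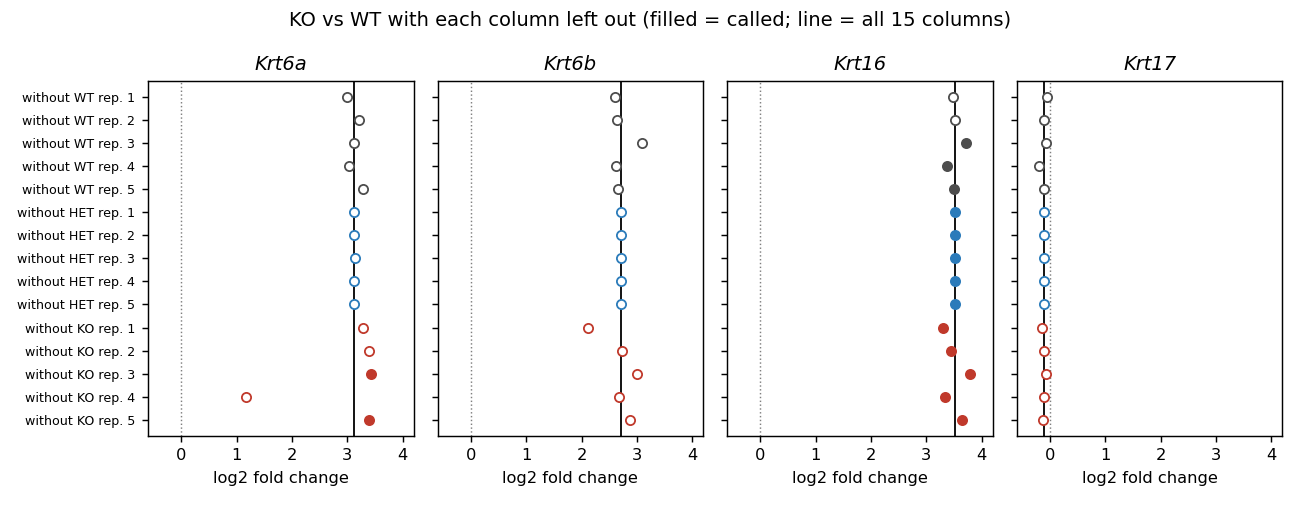
Log2 fold change KO vs WT (x axis) of each stress keratin after leaving out the column named on the y axis, with filled points where the gene was called and a vertical line at the value from all 15 columns. Krt16 stayed between 3.30 and 3.78 but was not called without WT replicate 1 or WT replicate 2, and Krt6a dropped to 1.17 without KO replicate 4.

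The ratio of Krt6a to Krt6b did not separate the genotypes. The log2 ratio was -1.03 ± 0.53 in WT and -1.66 ± 1.57 in KO (SD, n = 5), a difference of -0.63 with an exact permutation p of 0.437. Per kb, Krt6a made up 15.1% to 37.5% of the pair in WT and 9.27% to 62.5% in KO, with the highest share in KO replicate 4 and the lowest in KO replicate 1.

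The KO columns themselves were ordered alike for the inducible members. Krt16 and Krt6b fell in the order of KO replicates 1, 4, 2, 5 and 3, and Krt6a in the same order but with replicate 4 before replicate 1. KO replicate 3 was lowest for all 4 members, Krt17 included. From the lowest to the highest KO column Krt6a spanned 48.2-fold, Krt6b 21.7-fold, Krt16 8.08-fold and Krt17 1.23-fold. Libraries of the same number differed far less: over the 9 numbers with 2 libraries, the median absolute log2 difference was 0.43 for Krt6a, 0.13 for Krt6b, 0.19 for Krt16 and 0.05 for Krt17. In KO replicate 3, for example, Krt16 was at 57.4 CPM in the series 1 library and 50.2 in the series 2 library.

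The HET columns were set against WT to ask whether the loss of a single copy changes these genes. None of the 4 members was called in edgeR's quasi-likelihood test, which called 0% of all tested genes. At an unadjusted p under 0.05 it listed 270 genes, only 1.58% of all tested genes, with no member among them. Both DESeq2 and limma-voom also called 0 genes. HET columns lay entirely above WT columns for 0 of 4 members and for 0.140% of all tested genes. This comparison shares its WT columns with KO vs WT. The smallest adjusted p over all genes was 0.135 in edgeR's quasi-likelihood test. Even the Dsg1 genes, with a sum of 806 CPM in WT and 422 in HET, were not called. The lack of calls therefore does not show that nothing changed.

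For Krt16 the HET columns held 21.7, 86.7, 22.6, 29.1 and 18.2 CPM. Apart from replicate 2 they lay within the WT range. The log2 fold change was 0.52 (SE 0.55, adjusted p = 1.00 by edgeR's quasi-likelihood test) and turned to -0.12 without HET replicate 2. Krt6b was at 3.74, 43.9, 2.83, 2.21 and 0.814 CPM in HET, again with replicate 2 alone above WT. Its log2 fold change of 1.31 (SE 1.00) became -0.83 without that column. Krt6a was at 1.04, 2.98, 0.883, 0.846 and 0.574 CPM, with a log2 fold change of -0.23 (SE 1.00) that was -0.83 without HET replicate 2.

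Krt17 was at 721, 974, 615, 805 and 555 CPM in HET, and its log2 fold change was -0.01 with an interval of -0.28 to 0.26. HET replicate 2 was thus the highest HET column of every member. Both of its libraries gave this, with Krt6b at 45.3 CPM in series 1 and 40.9 in series 2. The same column had the highest HET sum of follicle sheath keratins, at 868 CPM with 374 from Krt79 and at most 454 in the others. Its sum of hair follicle markers was also the highest in HET (317 CPM, the next at 307). Highest there among HET columns were also interfollicular keratins (71138 CPM), skin epidermis markers (78075 CPM) and wound edge and hyperproliferation genes (309 CPM). Proliferation genes and the simple, periderm and mucosal keratins were highest in HET replicate 4. With the hair follicle score as a covariate, the HET vs WT log2 fold change was 0.50 for Krt6b, 0.41 for Krt16 and -0.30 for Krt6a, none of them called. The cause of the high levels in HET replicate 2 was not tested.

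KO against HET, the comparison of no copy with a single copy, called 1 of 4 members higher, Krt16, where 0.0819% of all tested genes were called higher. Krt16 differed by 3.0 on the log2 scale (SE 0.58, adjusted p = 0.0877 by edgeR's quasi-likelihood test). Its call was lost without any of WT replicates 1, 2, 3 and 5, HET replicates 1, 3 and 5 or KO replicates 1 and 4, with adjusted p from 0.112 to 0.227 and log2 fold changes from 2.78 to 3.0. Every KO column lay above every HET column for 0 of 4 members, beside 0.954% of all tested genes, since KO replicate 3 at 54.5 CPM was under HET replicate 2 at 86.7. Krt6a differed by 3.35 (SE 0.98, adjusted p = 0.167), which was 1.40 without KO replicate 4. Krt6b had 1.41 (SE 0.97, adjusted p = 0.492), which was 3.55 without HET replicate 2 and 0.80 without KO replicate 1. Krt17 had -0.10 (SE 0.14), with an interval of -0.37 to 0.17.

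**Figure D3:**
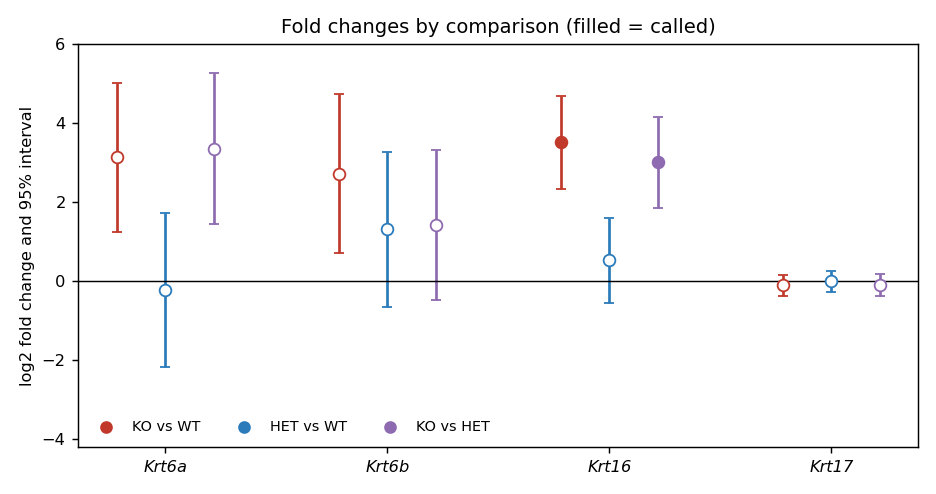
Log2 fold change of each stress keratin in the 3 comparisons (points), with 95% intervals of 1.96 SE to each side as bars and filled points where the gene was called. Krt16 is filled in KO vs WT (3.52) and KO vs HET (3.0), the bars of Krt6a and Krt6b are wide, and the bars of Krt17 are narrow and cross 0.

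Set against all keratins, the inducible members stayed a small fraction of the transcripts. Per kb, Krt16 made up 0.0879% ± 0.0288 of the 27 type I keratins in WT and 0.868% ± 0.521 in KO (SD, n = 5). Krt17 made up 2.65% ± 0.566 in WT and 2.14% ± 0.327 in KO. Of the 25 type II keratins, Krt6b made up 0.0167% ± 0.00861 in WT and 0.0875% ± 0.0743 in KO, and Krt6a 0.00568% ± 0.00196 and 0.0408% ± 0.0686. The 4 members together were 1.69% ± 0.379 of all keratin transcripts per kb in WT and 1.84% ± 0.425 in KO, with overlapping ranges.

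Among the 41 other keratin genes tested, 0 were called in KO vs WT by edgeR, with a median log2 fold change of 0.15. In that comparison 8 of them had an unadjusted p under 0.05, as did 3296 of all 17094 genes tested (19.3%), a share near that of the keratins. The basal keratins Krt5 (log2 fold change 0.03, SE 0.10) and Krt14 (-0.09, SE 0.13) and the suprabasal keratins Krt1 (0.32, SE 0.14, adjusted p = 0.216) and Krt10 (0.23, SE 0.13, adjusted p = 0.352) did not pass. Of 9 interfollicular keratins 0 were called, with a median of 0.17. The highest values of that list were Krt78 (0.62) and Krt1, and the lowest were Krt77 (-0.55) and Krt2 (-0.16).

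Follicle sheath keratins, which apart from Krt79 mark companion layer and inner root sheath, were tested for 8 of 10 genes. Of these 0 were called, with a median of 0.16 on the log2 scale and a range of -0.19 to 0.59, the value of Krt79. Krt75, the companion layer type II keratin that lies near Krt6b on chromosome 15, had a log2 fold change of 0.04 (SE 0.56). Hair follicle markers (8 genes) also had 0 called and a median of 0.12. Krt16 in KO vs WT had a log2 fold change of 3.21 and stayed called with a hair follicle score as a covariate, and Krt6b had 1.89. The genes next along each chromosome, Krt5 and Krt71 past Krt6a and Krt14 and Krt42 to either side of Krt16 and Krt17, had log2 fold changes of 0.03, 0.19, -0.09 and -0.06, none of which passed.

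Wound edge and hyperproliferation genes are known to accompany stress keratins in injured epidermis. Of these 10, 1 was called higher and 0 lower (all tested genes: 0.135% and 0.187%). Their median log2 fold change was 1.34. The called gene was Sprr1b, a cross-linked precursor of the cornified envelope. It was at 9.07, 15.2, 28.9, 42.2 and 16.7 CPM in WT. In KO it was at 174, 232, 117, 265 and 104 CPM, above WT in every column, replicate 3 included. The log2 fold change was 2.99 (SE 0.43, adjusted p = 0.0171 by edgeR's quasi-likelihood test). Its relative Sprr1a was at 35.3, 40.8, 6.55, 54.2 and 22.9 CPM in KO against at most 13.4 in WT, so that KO replicate 3 lay within the WT range as it did for Krt6b. Sprr1a did not pass (1.78, SE 0.60, adjusted p = 0.150). The lowest values of the list were Plaur (-0.26), the urokinase receptor, and Itga5 (-0.11), the fibronectin receptor chain.

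Signals and regulators known to act on stress keratin genes include ligands of the EGF receptor, interleukin 1 and AP-1 factors. Of the 18 on the list, 1 was called higher and 0 lower (all tested genes: 0.135% and 0.187%). Their median log2 fold change was 0.26. The called gene was Fosl1, an AP-1 subunit, at 1.47, 3.06, 1.40, 4.32 and 2.95 CPM in KO and 1.06 to 1.17 in WT (log2 fold change 1.24, SE 0.27, adjusted p = 0.0740). Of the EGF receptor ligands, Ereg (1.53, adjusted p = 0.105) and Hbegf (0.69, adjusted p = 0.102) did not pass, although all KO columns of Hbegf, 8.47 to 15.6 CPM, lay above its WT columns of 6.51 to 8.43, for which it was picked out. Il1a was lower, at 0.426 to 7.38 CPM in KO and 7.39 to 16.2 in WT, and did not pass either (-2.06, SE 0.59, adjusted p = 0.113). Il1b went the other way, at 0.340 to 3.19 CPM in KO and 0.151 to 0.837 in WT. It did not pass (1.46, SE 0.55, adjusted p = 0.175 by edgeR's quasi-likelihood test) and rested on 3 to 23 counts per WT column.

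Proliferation genes had 0 of 8 called, with a median of -0.06 on the log2 scale and a range of -0.26 (Pcna) to 0.20 (Mki67). Of 7 neutrophil markers 5 were tested, with a median of 1.22, and 1 was called higher (all tested genes: 0.135%). This was the chemokine receptor Cxcr2 (2.31, SE 0.54, adjusted p = 0.0891 by edgeR's quasi-likelihood test). The summed level of the 7 markers was 6.06 to 8.22 CPM in WT, 4.40 to 16.6 in HET and 5.35 to 22.3 in KO. The KO maximum of the sum was in replicate 3. Cxcr2 itself was at 1.44, 0.775, 0.809, 3.70 and 0.571 CPM in KO (replicates 1 to 5), highest in replicate 4. In WT it rested on 4 to 13 counts per column. Dermal fibroblast and skeletal muscle markers had 0 of 5 called each, with medians of -0.24 and -0.09. Skin epidermis markers had 0 of 7 called, with a median of 0.23 and a range of -0.09 to 0.70. Among them Dsc1 passed on adjusted p (0.0915, edgeR's quasi-likelihood test) but not on size (0.64). All its KO columns lay above its WT columns, for which it was picked out.

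**Figure D4:**
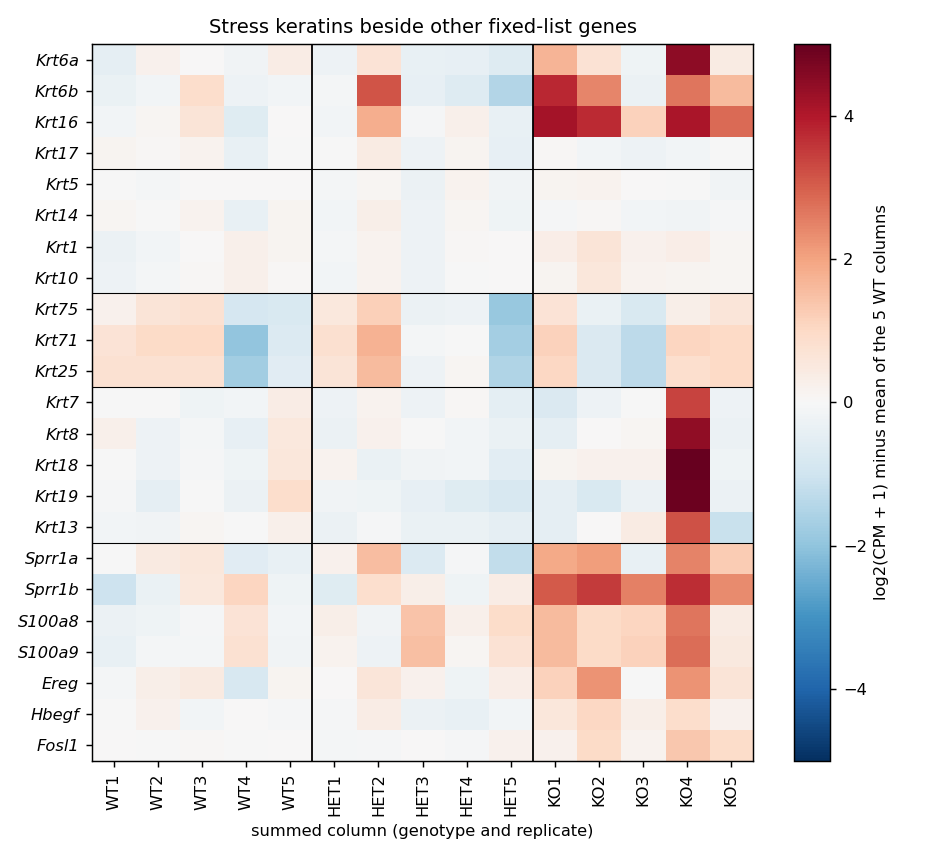
Log2(CPM + 1) minus the mean of the 5 WT columns (colour) for the stress keratins and genes of the fixed lists (rows) in the 15 columns (WT1 to KO5). Krt16 and Sprr1b are raised in all KO columns, Krt6b and Sprr1a are not raised in KO3, Krt7, Krt8, Krt18, Krt19 and Krt13 stand out in KO4, and HET2 shows Krt6b, Krt16 and Sprr1a above the other HET columns.

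Likeness was measured by Pearson's r of log2(CPM + 1) over the 15 columns among 15059 genes whose mean was at least 20 counts, as a description, since the columns share genotypes. The 5 genes most like Krt16 were Iffo2 (r = 0.956), Pla2g2d (0.953), Slc5a8 (0.948), Pinlyp (0.944) and Klk6 (0.939), and r stayed between 0.902 and 0.940 without KO replicates 1 and 4, the columns farthest from the Krt16 median. For Krt6b they were Sprr1a (0.928), Zfand3 (0.920), Smox (0.899), Krt16 (0.890) and Klk6 (0.865), with r from 0.840 to 0.959 without KO replicate 1 and HET replicate 2. For Krt17 they were Golga7b (0.936), Ggt1 (0.909), Tnfrsf18 (0.909), Krt14 (0.890) and Homer3 (0.884), with r from 0.822 to 0.905 without HET replicates 2 and 5.

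The genes most like Krt6a were Serpina3g (0.928), Prss27 (0.921), Slfn4 (0.920), Bcl3 (0.904) and Ccl2 (0.902), and these rest on single columns, as r was 0.083 to 0.592 without KO replicates 4 and 1. Klk6 was on the lists of both Krt16 and Krt6b, and no gene was on the list of Krt17 and of another member. Between members r was 0.89 for Krt6b and Krt16, 0.77 for Krt6a and Krt16 and 0.71 for Krt6a and Krt6b. For Krt17 it was 0.16 with Krt16, 0.42 with Krt6b and 0.09 with Krt6a. With genotype means removed, the values for Krt17 were 0.66, 0.69 and 0.25, and those of the other pairs were 0.92, 0.67 and 0.55 in the order given.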

How the data were processed

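The deposited table holds raw counts per gene symbol, made by the authors as whole numbers and without normalization. The submitters' processing notes name STAR, HTSeq and the build hg19, a human assembly, with no versions. The use of strand, the annotation and the handling of reads with several matches were not given in the sources used here. Libraries of the same title number and genotype were summed, and replicates were numbered by ascending title number. Counts were filtered (filterByExpr), scaled by TMM and tested with edgeR 4.0.16 in R 4.3.3 (robust quasi-likelihood, all 3 genotypes in one fit). SE were the log2 fold change divided by the root of F. Exact permutation tests used all 252 arrangements and a pseudocount of 1 CPM. DESeq2 1.42.0 and limma 3.58.1 were alternatives. Scripts were tested on simulated data. Lengths and identities came from GENCODE vM21. Likeness was measured over all tested genes above the count minimum, with 5 genes named per member, and list genes were named when called, when extreme in their list or as partners of a member. Members and lists were chosen with earlier results of these data known. Promoter sequences of Krt6a, Krt6b, Krt16 and Krt17 were not used here. Counts without molecular identifiers are not independent molecules.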

Additional observations from a re-analysis of the deposited data

Results flagged for a closer look

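In groups of 5 columns, a highest or lowest column was flagged when, on the log2(CPM + 1) scale, its gap to the next column exceeded Dixon's 95% critical share of the group's range. Of 279 groups of members and list genes, 28 were flagged, where chance flags about 1 in 20, or 13.9. Among the members, Krt6a in HET replicate 2 (gap share 0.720 on that scale, 2.98 CPM with the next at 1.04) and Krt6b in WT replicate 3 (gap share 0.819, 8.35 CPM with the next at 3.63) were flagged as highest. On the CPM scale, added after seeing the data, these gap shares were 0.805 and 0.876, and Krt6a in KO replicate 4 (0.886), Krt6b in HET replicate 2 (0.932) and Krt16 in HET replicate 2 (0.841) also passed. Gap shares given for other genes are on the log2 scale.

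KO replicate 4 was highest and apart for Krt7 (gap share 0.823), Krt8 (0.882), Krt18 (0.920) and Krt19 (0.916), and lowest for Col3a1 (0.712). Of other keratins, Krt15 (0.711) and Krt78 (0.779) were highest in HET replicate 4, Krt10 (0.827) in KO replicate 2, Krt2 (0.902) in HET replicate 2 and again Krt2 (0.713) in KO replicate 1, and Krt18 (0.739) in WT replicate 5.

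Of wound edge genes and regulators, S100a8 (0.787) and S100a9 (0.741) were flagged in WT replicate 4 as highest among the WT columns only. Over all 15 columns both were highest in KO replicate 4, at 32.9 and 43.7 CPM. Their KO vs WT log2 fold changes were 1.71 and 1.73 (adjusted p = 0.102 and 0.109, edgeR's quasi-likelihood test), neither called. For each, 4 KO columns lay above every WT column. Klf4 (0.747) was highest in KO replicate 2, and Plaur was lowest in HET replicate 4 (0.720) and KO replicate 2 (0.830). Of proliferation genes, Mki67 (0.732) was highest in KO replicate 1, Birc5 (0.763) and Ccna2 (0.809) were highest in WT replicate 1, and Cdk1 (0.715) was lowest in HET replicate 3. Of cell type markers, Foxi3 (0.805) and Dcn (0.747) were highest in WT replicate 4, Mpo (0.865) in KO replicate 3, Ltf (0.745) in HET replicate 3 and Lor (0.782) in KO replicate 2, and Dcn (0.862) was lowest in HET replicate 2.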

How the results depend on the processing

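No paired analysis was possible because no title number occurs in more than 1 genotype. In KO vs WT, Krt6b and Krt6a kept their direction in 31 of 31 alternatives, as did Krt16, which was called in 28 of them, and Krt17, which was called in 0. Krt16 was not called with series 1 alone (3.45, adjusted p = 0.551), and leaving out columns gave 3.30 to 3.78. Krt6a became called by DESeq2 (3.17), with 24 separate libraries (2.71) and with number 35 as 2 columns (3.09), and was not called by limma-voom (1.72, adjusted p = 0.305) or with series 1 alone (1.06, adjusted p = 0.623), which holds no library of KO replicate 4. Leaving out columns gave 1.17 to 3.43. Krt6b became called by DESeq2 (2.74) and with 24 separate libraries (2.72). The fit of 24 separate libraries treated libraries of the same title number as independent samples. Where these share an embryo its p-values are too small, so its calls add no support. In KO vs HET, Krt16 was not called at an adjusted p of 0.05 (3.0), without the low-count filter (3.01), with only the 2 genotypes compared (2.99) or with series 1 alone (2.63), and gave 2.78 to 3.64 with columns left out. Krt6a became called there by DESeq2 (3.41) and with 24 separate libraries (2.90), was not called by limma-voom (2.11) or with series 1 alone (0.94), and gave 1.40 to 3.96 with columns left out. Krt6b gave 2.25 by limma-voom, 0.93 with series 1 alone and 0.80 to 3.55 with columns left out, none called. Krt17 in that comparison gave -0.18 to 0.03 with columns left out.

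In HET vs WT the direction turned for Krt6a with series 1 alone (0.13) and for Krt17 when scaled to Krt5 and Krt14 (0.03), with series 1 alone (0.12), with 24 separate libraries (0.03) and with the Y-linked covariate (0.01). Krt6b gave 0.03 by limma-voom and 0.50 with the hair follicle covariate. Leaving out columns gave -0.83 to -0.05 for Krt6a, -0.83 to 1.69 for Krt6b, -0.12 to 0.72 for Krt16 and -0.13 to 0.07 for Krt17, none called. Over all genes this comparison called 0 to 1 with columns left out.

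Calls over all genes in KO vs WT were 55, and 25 at an adjusted p of 0.05, 190 by DESeq2, 100 by limma-voom, 15 with only the 2 genotypes, 3 with series 1 alone, 221 with 24 libraries, 138 with number 35 as 2 columns, 29, 32 and 124 with the Y-linked, hair follicle and skeletal muscle covariates, and 20 (without WT replicate 2) to 240 (without KO replicate 5) with columns left out. Called keratins there were 1, and 4 by DESeq2, 0 with series 1 alone, 7 with 24 libraries, 3 with number 35 as 2 columns, 2 with the muscle covariate and 0 to 4 with columns left out. In KO vs HET they were 1, and 0 at an adjusted p of 0.05, without the filter, with only the 2 genotypes and with series 1 alone, 2 by DESeq2, 6 with 24 libraries and 0 to 4 with columns left out. Calls over all genes in KO vs HET were 10 at an adjusted p of 0.05, 20 with a mean of at least 50 counts, 126 by DESeq2, 3 with only the 2 genotypes, 3 with series 1 alone, 179 with 24 libraries, 16 and 94 with the hair follicle and muscle covariates, and 10 to 113 with columns left out. The counts with 24 libraries come from a fit that treated libraries of the same number as independent samples. The cause of the changes in these counts was not tested. The WT level of Krt6a rests on 17 to 63 counts per column, which limits its fold changes.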
